A study of Mus musculus with 35 samples.

Results

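The genes described here are 10 that carry out antigen presentation by MHC class I: the heavy chains H2-K1, H2-D1 and H2-T23, their light chain B2m, the peptide transporter subunits Tap1 and Tap2, the peptide editor Tapbp, and the immunoproteasome subunits Psmb8, Psmb9 and Psmb10. They were taken by name from the table of striatal counts. All 10 were among the 22099 genes listed, and all 10 were among the 17639 genes that passed the filter on low counts and were tested. Their high levels in mice given Htt ASO were known when they were chosen, so the comparisons of Htt ASO with the other treatments are given as a description of these genes. Where genes past a threshold are counted for these comparisons, the count is no evidence about them. Genotype, and control ASO against saline, were not used in the choice.

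RNA was sequenced from the striatum of 35 female C57BL/6J mice, 1 library per mouse, aged 299 to 304 days. The mice were Htt Q111/+, which carry an expanded CAG repeat in 1 copy of the endogenous mouse huntingtin gene and so express it from its own promoter, or Htt +/+ (wild-type). From 2 to 10 months of age they received weekly intraperitoneal injections of an antisense oligonucleotide (ASO) against Htt (50 mg/kg, labelled ASO1), of a control ASO with another sequence (50 mg/kg), or of saline (4 uL/g), and all were perfused at sacrifice. Each of the 6 groups held 6 mice, except that Htt +/+ with control ASO held 5. The tissue was the right hemistriatum except in 1 Htt +/+ mouse on Htt ASO (replicate 6), where it was the left.

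Class I molecules show fragments of a cell's own proteins at its surface. The proteasome cuts proteins into peptides, TAP carries the peptides into the endoplasmic reticulum, tapasin and its chaperones fit them into the groove of a heavy chain paired with beta-2-microglobulin, and the loaded complex moves to the surface, where CD8 T cells read it. Interferons raise most genes of this route, and in the immunoproteasome the subunits encoded by Psmb8, Psmb9 and Psmb10 take the places of Psmb5, Psmb6 and Psmb7. In the healthy brain class I expression is low, and it has been described in microglia, endothelium and some neurons.

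Of the 10 genes, 8 lie on mouse chromosome 17, B2m lies on chromosome 2 and Psmb10 on chromosome 8. The DNA just before the start sites of 4 genes is shown because these are the heavy chains and the light chain. They also differ in their matches to the motifs of interferon and NF-kappaB factors given below. Each stretch runs 5′ to 3′ on the strand of the gene and ends at the base before the start site (RefSeq, build GRCm38.p6). Capitals mark matches on either strand to an ISRE-like motif (GAAA, then NN, then GAAA) or to the NF-kappaB consensus. H2-K1 is at chr17:34000334-34000583 on the minus strand, H2-D1 at chr17:35262844-35263093 on the plus strand, B2m at chr2:122147437-122147686 on the plus strand, and H2-T23 at chr17:36032702-36032951 on the minus strand.
H2-K1: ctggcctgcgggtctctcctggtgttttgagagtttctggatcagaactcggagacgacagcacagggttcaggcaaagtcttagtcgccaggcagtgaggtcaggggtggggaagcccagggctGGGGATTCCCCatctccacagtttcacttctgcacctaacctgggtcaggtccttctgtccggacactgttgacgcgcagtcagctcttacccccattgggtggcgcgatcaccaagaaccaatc
H2-D1: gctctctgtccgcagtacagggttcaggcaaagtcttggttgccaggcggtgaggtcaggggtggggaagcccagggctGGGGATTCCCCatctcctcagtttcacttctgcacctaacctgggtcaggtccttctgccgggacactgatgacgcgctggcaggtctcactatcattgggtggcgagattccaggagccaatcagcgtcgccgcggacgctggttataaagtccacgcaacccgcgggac
B2m: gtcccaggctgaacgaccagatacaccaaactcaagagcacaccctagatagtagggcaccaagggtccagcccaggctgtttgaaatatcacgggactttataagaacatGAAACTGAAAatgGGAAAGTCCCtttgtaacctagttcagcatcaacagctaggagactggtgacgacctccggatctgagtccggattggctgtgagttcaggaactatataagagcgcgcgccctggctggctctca
H2-T23: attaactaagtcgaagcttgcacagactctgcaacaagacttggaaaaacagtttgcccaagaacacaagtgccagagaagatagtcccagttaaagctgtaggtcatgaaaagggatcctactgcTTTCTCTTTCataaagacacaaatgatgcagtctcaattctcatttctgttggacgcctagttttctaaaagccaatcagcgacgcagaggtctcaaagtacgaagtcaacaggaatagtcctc

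In H2-K1 and H2-D1 the capitals hold a pair of overlapping NF-kappaB matches, the first starting at -125 and -171 from the start site. From a second start site listed for H2-K1 the first match starts at -111, so these positions depend on the site taken. The stretches shown for H2-K1 and H2-D1 share an identical run of 47 bases. B2m held both motifs, the ISRE-like match from -139 to -130 and the NF-kappaB match from -126 to -117. H2-T23 held an ISRE-like match alone, from -124 to -115. Windows that reached 50 bases past the start site were found for 9 of the 10 genes, and the table held no entry for Tap2. Over these windows the ISRE-like motif was in 2 of the 9 genes and in 3.44% of all 32851 promoters, and the NF-kappaB consensus was in 3 of the 9 and in 4.51%. A GAS-like motif, TTCNNNGAA, was found for Psmb8 only, with 8.30% of all promoters holding it, and the CCAAT box for 7 of the 9 genes, with 37.4%. Tap1 and Psmb9 are transcribed away from each other from start sites 226 bases apart, so that their windows shared 275 bases. Their CCAAT matches, from -222 to -218 for Tap1 and from -8 to -4 for Psmb9, are the same bases counted for both genes. These are matches of letters, and binding was not measured. Only letters that fit these patterns were marked, so a stretch without an ISRE-like match may still hold an interferon element.

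Levels are CPM, counts scaled to a common library total, with library sizes adjusted by TMM, and differences are log2 differences of group means from limma after voom, with the standard error (SE). Total counts ran from 32200158 to 38641924 per mouse, and for the 10 genes a mouse had between 20 counts (Psmb9) and 4399 (B2m). The transcript of the targeted gene, Htt (row Hdh), was at 85.3 CPM ± 13 (SD, n = 6) on Htt ASO and 89.7 ± 8.78 (n = 5) on control ASO in Htt +/+ mice, and at 71.6 ± 8.35 (n = 6) and 75.2 ± 7.74 (n = 6) in Htt Q111/+ mice. The log2 difference of Htt ASO from control ASO was -0.077 (SE 0.068, adjusted p = 0.967), so a fall of the target in the striatum was not detectable. Markers of striatal projection neurons summed to between 7541 and 8829 CPM in the Htt +/+ mice and between 5068 and 6063 in the Htt Q111/+ mice. The heavy chains share sequence: 8.79% of the 50-base windows of the H2-K1 transcript, 14.3% of those of H2-D1 and 28.8% of those of H2-T23 also occur in transcripts of other genes, against 0% for B2m, Psmb8, Psmb9 and Psmb10, so reads of the heavy chains were in part divided by the quantification. In whole striatum, more cells of a type that express a gene and more RNA of it per cell cannot be told apart.

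Per kilobase of transcript the light chain was far above each of these 3 heavy chains taken singly. Other heavy chains also use it, such as H2-Q1, at 11.1 CPM per kb in Htt +/+ mice on saline. The sum over all heavy chains was not compared with it. In Htt +/+ mice on saline B2m was at 79.6 CPM per kb ± 12.6 (SD, n = 6), H2-D1 at 17.6 ± 2.80, H2-K1 at 16.8 ± 1.52 and H2-T23 at 10.3 ± 0.439. The ranges of H2-D1 and H2-K1 overlapped. Tapbp followed at 8.03 ± 0.354 CPM per kb and Psmb10 at 5.53 ± 0.653, ahead of Tap2 at 2.44 ± 0.218. Psmb8 was at 1.47 ± 0.338, Tap1 at 0.746 ± 0.131 and Psmb9 at 0.695 ± 0.0909 CPM per kb, and only the ranges of Tap1 and Psmb9 among these 3 overlapped.

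H2-K1, one of the classical heavy chains that present peptides to CD8 T cells, was the gene most clearly raised in mice given Htt ASO. On saline it ran from 24.1 to 30.1 CPM (median 27.0) in 6 Htt +/+ mice and from 23 to 28.5 (median 25.2) in 6 Htt Q111/+ mice. On control ASO it was 29.3, 26.4, 24.8, 27.4 and 26.1 CPM in the 5 Htt +/+ mice and ran from 23.2 to 26.6 (median 25.2) in the Htt Q111/+ mice. On Htt ASO it ran from 38.8 to 51.8 CPM (median 45.7) in Htt +/+ and from 36.2 to 47.9 (median 38.5) in Htt Q111/+ mice. Every one of the 12 mice on Htt ASO was above every one of the 23 other mice, of which the highest had 30.1 CPM. Of all tested genes, 0.0737% were separated in this way. The mean was 42.6 CPM ± 5.47 (SD, n = 12) against 26.2 ± 2.00 (n = 23). The log2 difference was 0.71 (SE 0.051) from control ASO and 0.68 (SE 0.050) from saline.

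**Figure D1:**
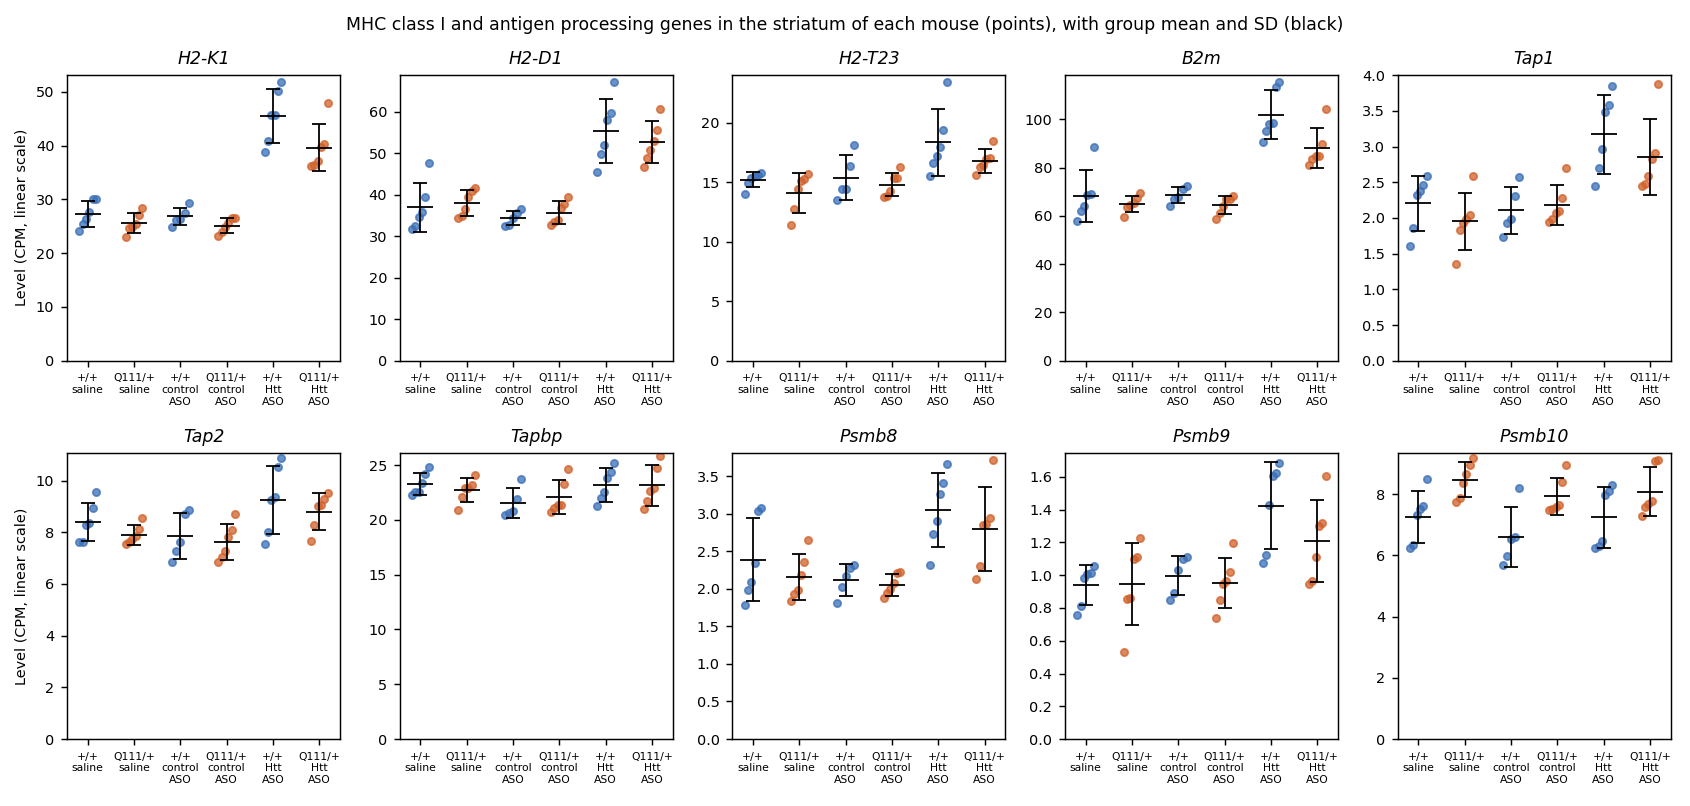
Level of each of the 10 genes in each mouse (y axis, CPM on a linear scale from 0) by genotype and treatment (x axis), with 1 point per mouse, Htt +/+ in blue, Htt Q111/+ in orange, and black bars for the group mean and SD. All 12 H2-K1 points on Htt ASO lie at 36.2 CPM or above, over the highest of the other mice at 30.1, while Psmb10 overlaps between all treatments.

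H2-D1, the other classical heavy chain of this strain, followed the same course with more overlap. On saline it ran from 31.8 to 47.7 CPM (median 35.4) in Htt +/+ mice and from 34.4 to 41.8 (median 38.1) in Htt Q111/+ mice. On control ASO the 5 Htt +/+ mice had 34.5, 36.7, 32.5, 32.8 and 35.6 CPM, and the Htt Q111/+ mice 32.8 to 39.5 (median 35.4). On Htt ASO it ran from 45.6 to 67.2 CPM (median 55.1) in Htt +/+ and from 46.7 to 60.8 (median 51.9) in Htt Q111/+ mice. All 12 Htt ASO mice were above all control ASO mice, which 0.136% of tested genes showed, and 10 of the 12 were above every other mouse. The mouse that the remaining 2 did not exceed was Htt +/+ saline replicate 1, at 47.7 CPM. The log2 difference was 0.62 (SE 0.061) from control ASO and 0.53 (SE 0.059) from saline.

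B2m, the light chain that all class I heavy chains need to reach the surface, was raised alongside them. On saline it ran from 57.8 to 88.7 CPM (median 66.5) in Htt +/+ mice and from 59.4 to 69.4 (median 65.0) in Htt Q111/+ mice. On control ASO it was 71.1, 72.6, 67.2, 64.2 and 68.0 CPM in the Htt +/+ mice and 58.8 to 68.4 (median 65.7) in the Htt Q111/+ mice. On Htt ASO it ran from 90.5 to 116 CPM (median 98.3) in Htt +/+ and from 81.2 to 104 (median 84.9) in Htt Q111/+ mice. Within each genotype all 6 Htt ASO mice were above all mice on the other treatments, as 0.198% of tested genes were in Htt +/+ and 0.369% in Htt Q111/+, and across genotypes 8 of 12 were, again because of Htt +/+ saline replicate 1, at 88.7 CPM. The log2 difference was 0.51 from control ASO (SE 0.052) and 0.51 from saline (SE 0.051). H2-T23, a nonclassical heavy chain that shows signal peptides of other class I molecules to natural killer cells, differed less. It had a mean of 17.6 CPM ± 2.16 (SD, n = 12) on Htt ASO, 15.1 ± 1.41 (n = 11) on control ASO and 14.6 ± 1.35 (n = 12) on saline, and its log2 differences were 0.22 (SE 0.058) and 0.26 (SE 0.057). Of the Htt ASO mice, 3 were above every other mouse.

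Among the genes that make and carry peptides, the differences of Tap1, Psmb8 and Psmb9 were 0.37 or more on the log2 scale and those of Tap2, Tapbp and Psmb10 were 0.22 or less. Tap1, a subunit of the peptide transporter, ran from 2.44 to 3.88 CPM on Htt ASO, from 1.73 to 2.70 on control ASO and from 1.35 to 2.59 on saline. Its partner Tap2 ran from 7.54 to 10.9 CPM on Htt ASO, from 6.83 to 8.85 on control ASO and from 7.53 to 9.56 on saline. The log2 difference from control ASO was 0.48 (SE 0.10) for Tap1 and 0.22 (SE 0.059) for Tap2, and from saline 0.54 (SE 0.10) and 0.14 (SE 0.057). Tapbp encodes tapasin, which holds heavy chains at the transporter. It was the steadiest of the 10 across treatments, with means of 23.2 CPM ± 1.60 (n = 12), 21.8 ± 1.41 (n = 11) and 23 ± 1.06 (n = 12) for Htt ASO, for control ASO and for saline in turn, and a log2 difference of 0.088 (SE 0.037) from control ASO and 0.010 (SE 0.036) from saline.

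The inducible proteasome subunits were split. Psmb8 ran from 2.13 to 3.71 CPM on Htt ASO, from 1.80 to 2.31 on control ASO and from 1.79 to 3.08 on saline, with log2 differences of 0.47 (SE 0.098) and 0.37 (SE 0.093). Psmb9 ran from 0.948 to 1.68 CPM on Htt ASO, from 0.738 to 1.20 on control ASO and from 0.532 to 1.23 on saline, with log2 differences of 0.41 (SE 0.12) and 0.48 (SE 0.12). Both groups of values overlapped between treatments, with 4 and 7 of the 12 Htt ASO mice above every other mouse. Psmb10, the remaining inducible subunit, had 0 of 12 above every other mouse. It had a mean of 7.67 CPM ± 0.965 (n = 12) on Htt ASO, 7.33 ± 1.02 (n = 11) on control ASO and 7.86 ± 0.940 (n = 12) on saline, and log2 differences of 0.077 (SE 0.064) and -0.042 (SE 0.061).

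**Figure D2:**
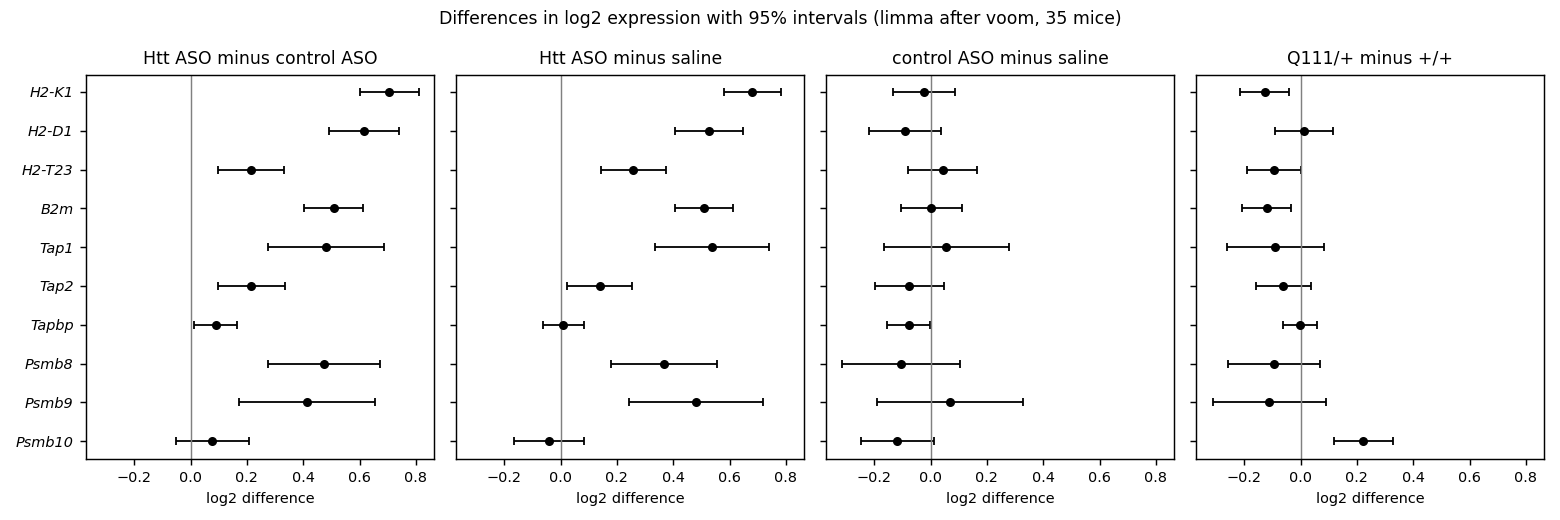
Log2 difference (x axis) of each gene (y axis) with its 95% interval from limma after voom, for Htt ASO against control ASO, Htt ASO against saline, control ASO against saline, and genotype. Against control ASO the values run from 0.077 for Psmb10 to 0.71 for H2-K1, while control ASO against saline runs from -0.12 to 0.069.

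Of the 10 genes, 5 were past the threshold of adjusted p below 0.05 for Htt ASO against control ASO (H2-K1, H2-D1, B2m, Tap1 and Psmb8, all higher), with 0.935% of all tested genes past it and 0.828% higher. For Htt ASO against saline 7 were past it, these and H2-T23 and Psmb9, with 1.47% of all genes past it and 1.20% higher. The 12 Htt ASO mice enter both comparisons, and as these genes were chosen for them the counts are no evidence about the genes. The median over the 10 genes was 0.44 from control ASO and 0.42 from saline on the log2 scale, beside -0.0038 and -0.0057 over all tested genes. Sequencing lanes, read from the sample labels, were 6, and with genotype means taken out Htt ASO mice were above control ASO mice within 6 of 6 lanes for 8 genes, within 5 for Tapbp and within 3 for Psmb10. For H2-K1 these within-lane differences ran from 0.57 to 0.94 on the log2 scale.

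Single mice on Htt ASO differed in how far the whole set stood above saline. Taking each mouse against the saline mice of its genotype, the median log2 difference over the 10 genes was 0.69 in Htt +/+ replicate 3, 0.68 in Htt Q111/+ replicate 3 and 0.62 in Htt +/+ replicate 2. It was 0.11 in Htt +/+ replicate 4, 0.13 in Htt Q111/+ replicate 2 and 0.14 in Htt Q111/+ replicate 6. In Htt +/+ replicate 4, H2-K1 was still 0.51 above saline while Tap2 was at -0.15 and Psmb8 at -0.012. In Htt Q111/+ replicate 3 Tap1 was 0.99 above saline, the largest value for any of the 10 genes in any mouse. The mouse with the left hemistriatum, Htt +/+ replicate 6, had a median of 0.21.

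**Figure D3:**
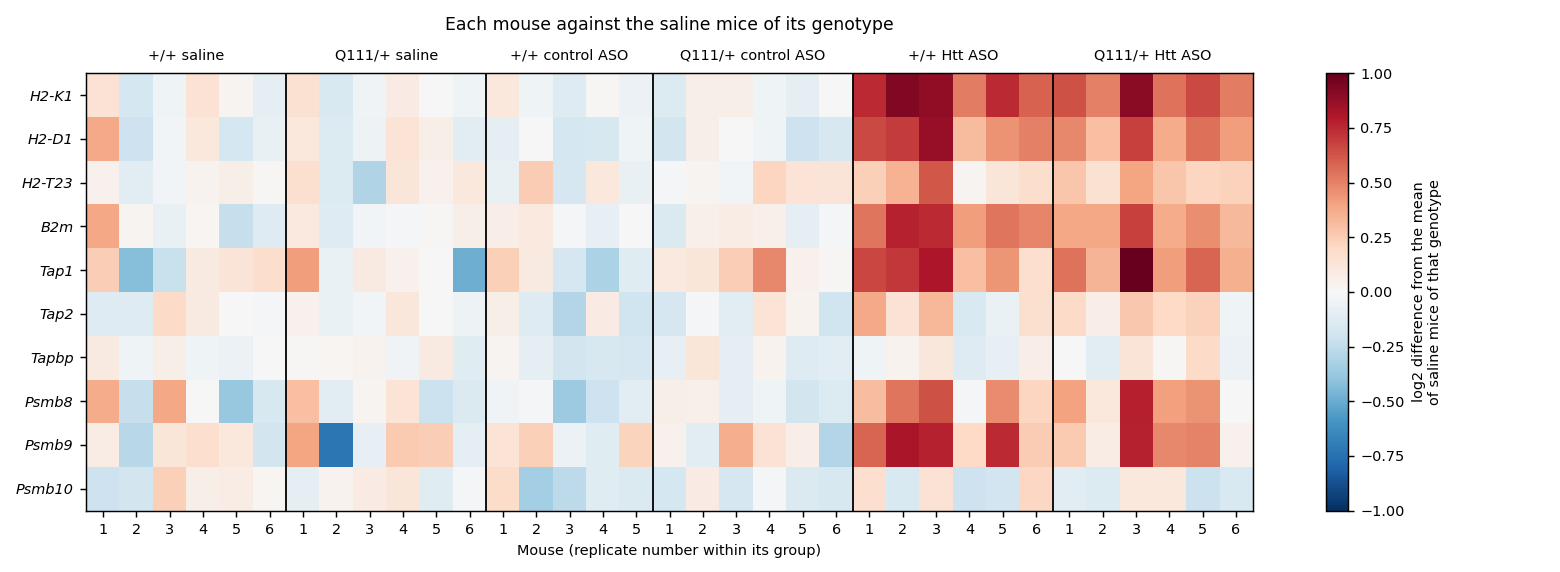
Log2 difference of each mouse (columns, grouped by genotype and treatment, numbered by replicate) from the mean of saline mice of its genotype for each gene (rows), in colour from -1 to 1. The H2-K1, H2-D1 and B2m rows are red in all 12 Htt ASO mice, with Htt Q111/+ replicate 3 among the strongest (median 0.68), and the Psmb10 row is pale throughout.

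The genes also varied together among mice of the same group. After the mean of its group was taken from each mouse, the Pearson correlation of log2 CPM over 35 mice was above 0 for 44 of 45 pairs, with a median of 0.50. These values share libraries and depth and are a description. Pairs of other genes were not compared. A mouse high in several of the genes, such as Htt Q111/+ Htt ASO replicate 3, enters many of the pairs. The pairs with the highest values were H2-D1 and B2m (0.81) and H2-K1 and H2-D1 (0.79), and the latter pair also shares sequence. Psmb10 had low values with the chains of the class I molecule, at -0.11 with B2m, 0.11 with H2-T23, 0.14 with H2-D1 and 0.21 with H2-K1, and was closest to Tap2 (0.69). Tap1 and Psmb9, whose start sites face away from each other, had 0.60.

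**Figure D4:**
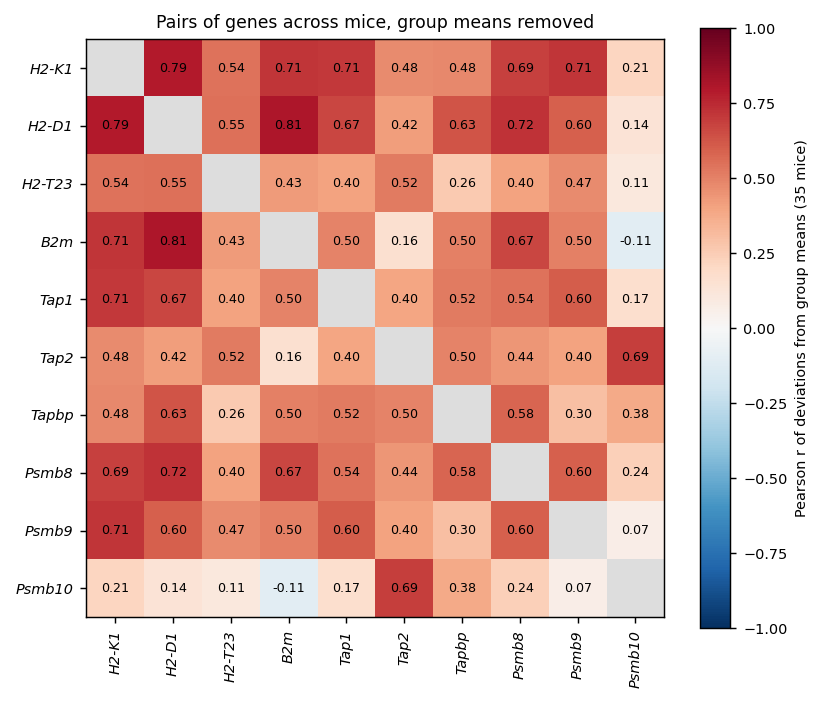
Pearson correlation between each pair of the 10 genes over 35 mice, after group means were taken out (both axes are genes, colour from -1 to 1, the diagonal grey). Values are highest for H2-D1 with B2m, at 0.81, and with H2-K1, at 0.79, and lowest for Psmb10 with B2m, at -0.11.

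The genes outside the set whose levels over 35 mice were most like the mean of the 10 standardised genes were Gbp3 (r = 0.86), Bst2 (0.855), Lgals3bp (0.84), Ddx58 (0.84) and Irf7 (0.84), beside a median of -0.014 over all genes. The 10 genes were chosen with their high levels on Htt ASO known. Other genes high on Htt ASO therefore rank high by that choice, and the ranking is a description. Gbp3 encodes an interferon-induced GTPase, Bst2 a membrane protein that tethers budding virus, Ddx58 an RNA sensor (RIG-I) and Irf7 a transcription factor of the interferon response. Their log2 differences of Htt ASO from control ASO were 0.72 for Gbp3, 0.77 for Bst2, 0.42 for Lgals3bp, 0.41 for Ddx58 and 1.73 for Irf7. With group means taken out, the genes most like the set were D12Ertd647e (r = 0.83), Lgals3bp (0.78), Ostf1 (0.76), Stx4a (0.73) and Csrp1 (0.73), so only Lgals3bp was on both lists. Beside Lgals3bp these differed by 0.20, 0.12, 0.013 and 0.0090 in turn between Htt ASO and control ASO.

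Whether an ASO of another sequence moved the same genes was asked by comparing control ASO with saline. No gene of the 10 was past the threshold, and 0 of 17639 tested genes were (0%) by limma, as by edgeR and DESeq2. At an unadjusted p below 0.05 limma had 1357 genes (7.69%), edgeR 1381 and DESeq2 1355, and of the 10 genes limma and edgeR had 1 each, in limma Tapbp, with a log2 difference of -0.078 (SE 0.038, adjusted p = 0.630). The log2 differences of the 10 genes ran from -0.12 for Psmb10 to 0.069 for Psmb9. H2-K1 differed by -0.023, with a 95% interval from -0.13 to 0.087, and B2m by 0.0026, with an interval from -0.11 to 0.11, both short of their differences on Htt ASO. The interval reached from -0.31 to 0.10 for Psmb8, so that shifts of this size were not detectable for the low genes.

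Differences by genotype went in both directions, from -0.13 to 0.22. Averaged over treatments, 3 of the 10 were past the threshold, where 39.8% of all tested genes were (21.8% higher and 18% lower in Htt Q111/+). Psmb10 was higher, with 7.26 CPM ± 0.855 (SD, n = 6) in Htt +/+ and 8.47 ± 0.572 (n = 6) in Htt Q111/+ mice on saline. H2-K1 and B2m were lower. The share of the 10 genes past the threshold was not above that of all genes.

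For Psmb10 the 17 Htt +/+ mice ran from 5.68 to 8.51 CPM and the 18 Htt Q111/+ mice from 7.28 to 9.18, with overlap. The log2 difference was 0.22 (SE 0.052, limma adjusted p = 6.9e-04). Htt Q111/+ was higher within each treatment, by 0.26 with control ASO (adjusted p = 0.048), 0.23 with saline (adjusted p = 0.060) and 0.17 with Htt ASO (adjusted p = 0.16), and in 4 of the 5 lanes that held both genotypes, with values from -0.011 to 0.33 after the mean of each treatment was taken out, since the lanes were not balanced for treatment. H2-K1 was lower by -0.13 (SE 0.042, adjusted p = 0.015) and B2m by -0.12 (SE 0.043, adjusted p = 0.023). With treatment means taken out in the same way each was lower in 5 of 5 lanes, by values from -0.26 to -0.025 for H2-K1 and from -0.17 to -0.032 for B2m. The raw means of mixed treatments were lower in 4 of 5 lanes for each. The sixth lane held 6 Htt Q111/+ mice only. With library totals in place of TMM the genotype difference was -0.089 for H2-K1 (adjusted p = 0.0865) and -0.082 for B2m (adjusted p = 0.111), and B2m was also not past the threshold with lane as a covariate (-0.10, adjusted p = 0.134) or without the lane of 1 genotype (-0.11, adjusted p = 0.101).

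By treatment, 0 of the 10 genes were past the threshold for genotype on saline (17.4% of all genes were), 1 on control ASO (Psmb10, with 18.5% of all genes) and 2 on Htt ASO (21.2%). On saline, limma gave 1 of the 10 at an unadjusted p below 0.05, Psmb10, with 28.7% of all genes. On Htt ASO the 2 were H2-K1, at 45.5 CPM ± 5.05 (n = 6) in Htt +/+ and 39.6 ± 4.41 (n = 6) in Htt Q111/+, and B2m, at 102 ± 10.3 and 88.1 ± 8.46. The log2 difference was -0.20 for H2-K1 (limma adjusted p = 0.030) and -0.21 for B2m (adjusted p = 0.032). Both calls were lost without lane 7. Both were also lost without Htt ASO replicates 2 or 3 of Htt +/+ or replicates 2, 4 or 6 of Htt Q111/+, and 1 was lost without replicate 1 of Htt Q111/+. The call of Psmb10 on control ASO was lost with no filter on low counts, with lane as a covariate, without lane 7 and in 19 of the 35 fits that left out 1 mouse. On Htt ASO Psmb9 had a genotype difference of -0.23 (limma adjusted p = 0.31), with a wider interval than H2-K1 and B2m. Over all treatments H2-D1 differed by 0.012 (SE 0.050, adjusted p = 0.87), and Tapbp by -0.0025 (SE 0.030, adjusted p = 0.96).

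The genotypes were then compared in the size of the treatment difference itself. Htt ASO minus control ASO was smaller in Htt Q111/+ than in Htt +/+ mice for all 10 genes, with interactions from -0.19 (Tap1) to -0.0078 (Tap2) on the log2 scale. For H2-K1 the difference was 0.76 in Htt +/+ and 0.65 in Htt Q111/+ mice (interaction -0.10, 95% interval -0.31 to 0.11), and for B2m 0.57 and 0.45 (interaction -0.12, interval -0.33 to 0.095). None of the 10 was past the threshold by limma, with a lowest adjusted p of 0.999, and 0% of all tested genes were. At an unadjusted p below 0.05 limma had 713 genes (4.04%) and 0 of the 10, and at the adjusted threshold edgeR and DESeq2 also had 0 genes. The 10 values share the same mice, so their common sign is not 10 observations. For Htt ASO against saline the interactions ran from -0.20 to 0.036, 0 genes were past the threshold by limma, edgeR or DESeq2 (973, or 5.52%, at an unadjusted p below 0.05 by limma), and 4 of the 10 genes were above 0.

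Of the other class I heavy chains, 3 had larger differences than H2-K1 and the rest smaller ones. Of 21 listed genes 17 were in the table and 14 were tested. On Htt ASO 5 of the 14 were higher than on control ASO and 0 lower, beside 0.828% and 0.108% of all tested genes. H2-Q6, H2-Q7 and H2-Q8, nonclassical genes of the Qa-2 group, had log2 differences of 2.01 (SE 0.22, adjusted p = 2.2e-07), 1.90 (SE 0.17, adjusted p = 2.6e-09) and 1.43 (SE 0.12, adjusted p = 1.5e-09). H2-Q7 ran from 2.25 to 3.99 CPM in the 12 Htt ASO mice and from 0.342 to 1.22 in the other 23, and H2-Q6 from 1.93 to 5.71 and from 0.272 to 1.54, with no overlap in either. Such a separation held for 0.0737% of all tested genes. H2-T24 (0.63, adjusted p = 0.012) and H2-Q1 (0.36, adjusted p = 0.0023) were also higher. Of the 50-base windows of H2-Q6 and H2-Q7, 32% and 34.9% occur in transcripts of other genes, each other's included, so these genes are not 2 independent values. The windows of H2-Q8, of the same group, were not examined, so it cannot be taken as a further independent value. The median over the 14 was 0.20, beside -0.0038 over all genes.

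By genotype the other heavy chains were 2 higher, 2 lower and 10 not past the threshold, where 21.8% of all tested genes were higher and 18% lower. H2-T22 (0.23, SE 0.037, adjusted p = 3.4e-06) and H2-T10 (0.43, SE 0.095, adjusted p = 3.75e-04), which share 44.7% and 42.9% of their windows with other transcripts and mostly with each other, were higher in Htt Q111/+. H2-Q1 (-0.28, adjusted p = 2.1e-04) and Fcgrt, the neonatal Fc receptor (-0.11, adjusted p = 0.040), were lower, Fcgrt not with library totals, without a filter or without lane 7 (highest adjusted p = 0.17). H2-T22 was at 14.1 CPM ± 0.838 (n = 6) in Htt +/+ and 17.6 ± 0.622 (n = 6) in Htt Q111/+ mice on saline.

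Of 10 genes for the loading and trimming of peptides, 1 was higher on Htt ASO and 0 lower, and this was Nlrc5, the transactivator of class I genes (row AI451557, an older symbol and the first of 2 rows for it). This row was at 0.964 CPM ± 0.272 (n = 12) on Htt ASO and 0.409 ± 0.115 (n = 11) on control ASO, a log2 difference of 1.21 (SE 0.18, limma adjusted p = 5.1e-05). It did not pass the filter at a mean of 1 CPM, and the second row was not examined. The proteasome activator subunits Psme1 (0.10, adjusted p = 0.46) and Psme2 (0.043, adjusted p = 0.97) were not past the threshold against control ASO. By genotype 8 of the 10 were higher in Htt Q111/+ and 0 lower, beside 21.8% and 18% of all genes, and those with the smallest p were Psme1 (0.32, SE 0.032, adjusted p = 4.4e-10), the chaperone Hspa5 (0.23, adjusted p = 2.1e-05), the disulfide isomerase Pdia3 (0.14, adjusted p = 2.4e-05) and Psme2 (0.19, adjusted p = 1.0e-04). Psme1 was at 17.6 CPM ± 1.01 (n = 6) in Htt +/+ and 21.4 ± 1.59 (n = 6) in Htt Q111/+ mice on saline.

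Of 16 genes of the constitutive core proteasome, counting the activator Psme3 and the assembly factor Pomp, 0 were past the threshold for Htt ASO against control ASO, from -0.015 to 0.045 on the log2 scale, and the counterparts of the inducible subunits differed by 0.017 (Psmb5), 0.0046 (Psmb6) and 0.0020 (Psmb7), with adjusted p of 0.978, 0.992 and 0.996. By genotype 8 of 16 were higher in Htt Q111/+ and 0 lower, beside 21.8% and 18% of all genes, Psmb5 by 0.12 (SE 0.024, adjusted p = 1.8e-04), Psmb4 by 0.056 (adjusted p = 0.00595), Psmb7 by 0.059 (adjusted p = 0.0064) and Psma5 by 0.060 (adjusted p = 0.0078). Psmb6 differed by 0.049 (adjusted p = 0.14). The count was 14 of 16 with library totals and 5 with DESeq2 or without lane 7. Of 8 tested MHC class II genes, 0 were past the threshold for Htt ASO against control ASO, at 0.028 to 0.63 on the log2 scale. By genotype 2 were lower in Htt Q111/+, beside 18% of all genes. These were H2-DMb1 (-0.37, adjusted p = 8.1e-05) and H2-DMa (-0.20, adjusted p = 8.75e-05), subunits of the class II peptide editor. The class II transactivator Ciita was at 6.92 counts or fewer in every mouse and was not tested.

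**Figure D5:**
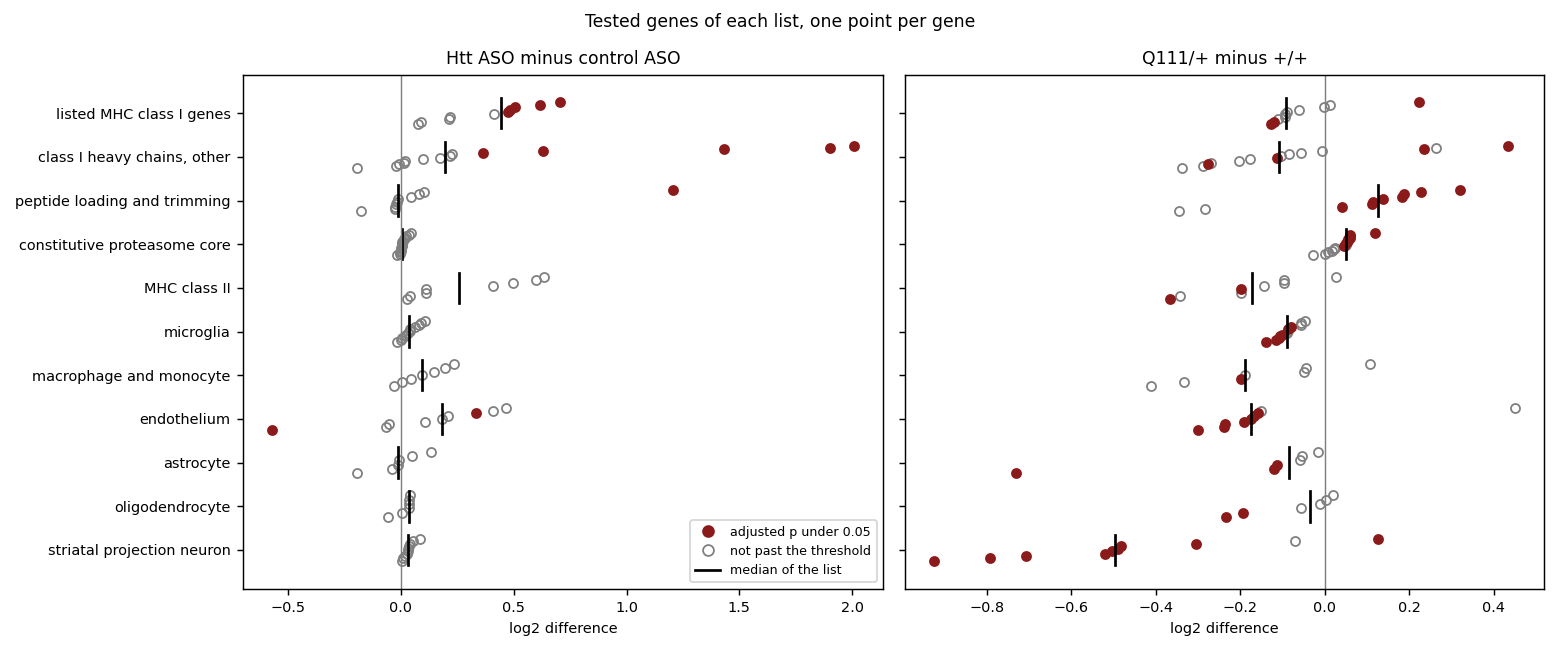
Log2 difference (x axis) of every tested gene (1 point each) by list (y axis), for Htt ASO against control ASO (left) and for genotype (right), with filled points for adjusted p below 0.05 in limma and a black line for the median of the list. On the left the 10 genes described here have a median of 0.44, H2-Q6, H2-Q7, H2-Q8 and Nlrc5 lie beyond all of them at 1.21 to 2.01, and all 12 microglia markers lie between -0.018 and 0.11.

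Markers of cell types that carry class I molecules were counted in the same fit. For Htt ASO against control ASO 0.828% of all tested genes were higher and 0.108% lower. Against saline these shares were 1.20% and 0.278%, and within Htt +/+ mice 0.663% were higher than on saline. Of 12 microglia markers, 0 were past the threshold for Htt ASO against control ASO, at -0.018 to 0.11 on the log2 scale, and their summed level ran from 608 to 709.5 CPM on Htt ASO and from 610.3 to 709.7 on control ASO in Htt +/+ mice, and from 580.4 to 659.7 and from 553 to 638 in Htt Q111/+ mice. Of 7 tested macrophage and monocyte markers 0 were past it against control ASO, and Ccr2 was at 10.0 counts or fewer in every mouse. Of 14 lymphocyte markers 11 were too low to test, with Cd3d, Cd3e and Cd3g at 4.00 counts or fewer and Cd8a at 11 or fewer in every mouse, and 0 of the 3 tested were past the threshold, as were 0 of the astrocyte, oligodendrocyte and striatal projection neuron markers. Of 9 endothelium markers Ly6c1 was higher (0.33, adjusted p = 4.0e-04) and Tek lower (-0.57, adjusted p = 1.7e-05) on Htt ASO, and the summed level ran from 286 to 331 CPM on Htt ASO, 262 to 414 on control ASO and 259.9 to 304 on saline in Htt +/+ mice, and from 250.9 to 280.7, 236 to 260.5 and 239 to 274 in Htt Q111/+ mice. Against saline Ly6c1 (0.40, adjusted p = 7.2e-06), Cdh5 (0.35, adjusted p = 8.0e-05) and Pecam1 (0.20, adjusted p = 0.045) were higher and Tek lower (-0.58, adjusted p = 4.6e-06). Of the macrophage and monocyte markers 2 were higher on Htt ASO than on saline within Htt +/+ mice, Pf4 (row Cxcl4, an older symbol, 1.20, adjusted p = 0.036) and Mrc1 (0.47, adjusted p = 0.047), and 0 within Htt Q111/+ mice, a difference that was not tested. Interferon is known to raise Ly6c1, and whether it did so here was not tested. The 3 matched blood genes had values of -0.30 to -0.13 for Htt ASO against control ASO in Htt +/+ mice and of 0.84 to 0.93 in Htt Q111/+ mice, with 0 past the threshold. The part of the endothelium, macrophage and blood markers in the differences of the class I genes was not tested.

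Several of these markers were lower in Htt Q111/+ mice, as were H2-K1 and B2m. Of the microglia markers 7 of 12 were lower and 0 higher, where 18% of all genes were lower and 21.8% higher, among them P2ry12 (-0.12, adjusted p = 9.2e-04), Cx3cr1 (-0.11, adjusted p = 0.0031) and C1qb (-0.11, adjusted p = 0.022). Of the endothelium markers 7 of 9 were lower and 0 higher, among them Slco1a4 (-0.24, adjusted p = 6.7e-08), Kdr (-0.30, adjusted p = 0.0012), Flt1 (-0.19, adjusted p = 0.0013) and Pecam1 (-0.17, adjusted p = 0.0018). With library totals 1 microglia marker was lower. Of the striatal projection neuron markers 8 of 10 were lower and 1 higher, of 6 astrocyte markers 3 were lower and of 6 oligodendrocyte markers 2 were lower, with 0 higher in either. Of the macrophage and monocyte markers F13a1 was lower (-0.20, adjusted p = 0.038), and of the lymphocyte markers Cd4 was lower (-0.54, adjusted p = 1.2e-15) and Lck higher (0.30, adjusted p = 2.3e-04). The part of these markers in the genotype differences of H2-K1, B2m and Psmb10 was not tested.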

How the data were processed

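Poly(A) RNA was sequenced as stranded libraries, 1 per mouse. The authors aligned the reads with Bowtie 0.12.9 and quantified them with RSEM 1.1.18 (versions per the submitters' processing notes, build mm9), and deposited expected counts per gene, which need not be whole (55.6% of values were). Promoter sequences came from RefSeq (GRCm38.p6), and no coordinates were carried between builds.

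The 35 mice were grouped by genotype and treatment from their labels. The label ASO1 was taken as the Htt ASO. Replicate numbers follow the order of the samples and pair nothing. There were 0 unused columns of sample values. The 85 pairs of mice within groups differed by more than sampling noise (chi-square per degree of freedom 3.57 to 16.5).

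Expected counts were scaled by TMM in edgeR 4.0.16, filtered (filterByExpr, minimum count 10, total 15) and fitted with voom in limma 3.58.1 (R 4.3.3), with 1 mean per group over all mice, as the study's methods name limma after voom. P-values were adjusted by Benjamini-Hochberg over 17639 genes, two-sided, with a threshold of 0.05. Scripts were tested on simulated data. Total counts of 32200158 to 38641924 gave Psmb9, the lowest of the members, 20 to 64 counts per mouse.

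Alternatives were library totals, no filter, a mean of at least 1 CPM, rounded counts in DESeq2 1.42.0 or in the quasi-likelihood test of edgeR, lane as a covariate, sample quality weights, leaving out the left hemistriatum, lane 7 or each mouse, and the letters of mouse names as a block. Counts over the other gene lists were put through them after the data were seen. Genes named were the 10 members, of each other list at most 4 past the threshold by smallest p, Nlrc5, Psme1, Psme2, Psmb5, Psmb6, Psmb7 and Htt, and the 5 most alike by correlation. H2-T24 and H2-Q1 are named beyond this because 5 of the other heavy chains were past the threshold. The members and lists were chosen with earlier results of these data known. The values of 1 gene that this rule names are not reported here.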

Additional observations from a re-analysis of the deposited data

Results flagged for a closer look

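Among 114 sets of mice of one group (19 genes, 6 groups), 8 held a mouse set apart by Dixon's criterion, where chance gives about 1 in 20, and 4 of the 8 were among the 60 sets for the 10 genes. Htt Q111/+ Htt ASO replicate 3 was highest for H2-K1 (47.9 CPM, the others 36.2 to 40.3), B2m (104 CPM, the others 81.2 to 89.7) and Tap1 (3.88 CPM, the others 2.44 to 2.91). Htt +/+ saline replicate 1 was highest for B2m, at 88.7 CPM with the others at 57.8 to 69.1. Among the other heavy chains, Htt Q111/+ saline replicate 3 was lowest for H2-Q1 (10.6 CPM, the others 18.1 to 21.8) and highest for H2-T24 (5.38 CPM, the others 1.37 to 2.09). Htt Q111/+ control ASO replicate 4 was highest for H2-Q1 (20.6 CPM, the others 18.3 to 19.2), and replicate 6 of that group was lowest for H2-T10 (1.13 CPM, the others 1.49 to 1.69).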

How the results depend on the processing

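The count of the 10 genes past the threshold for genotype over all treatments was 3, 1 with library totals and 2 without lane 7. With lane as a covariate it was also 3, but B2m was lost and Tap2 gained (-0.13, adjusted p = 0.022, against -0.061). Leaving out 1 mouse gave 3 to 4 (4 without Htt +/+ Htt ASO replicate 4). On saline it was 0, and 1 with library totals (0 to 1 with 1 mouse left out, 1 without Htt +/+ control ASO replicate 1, Htt +/+ saline replicate 3 or Htt Q111/+ saline replicate 5). On control ASO it was 1, and 0 with no filter, with lane as a covariate and without lane 7 (0 to 1). On Htt ASO it was 2, 1 with library totals or lane as a covariate, and 0 without lane 7 (0 to 2). For control ASO against saline and for both interactions it was 0 in every fit. Htt ASO against control ASO gave 4 to 7 and against saline 5 to 7. For the lists by genotype, microglia markers went from 7 to 1 with library totals (4 to 10 with 1 mouse left out, 4 without Htt Q111/+ control ASO replicate 6), and the constitutive proteasome from 8 to 14 with library totals, 5 with DESeq2 and 5 without lane 7 (5 to 9 with 1 mouse left out, 5 without Htt +/+ Htt ASO replicate 1, Htt +/+ saline replicate 2 or Htt Q111/+ control ASO replicate 4). Of all genotype calls 54.7% were higher in Htt Q111/+ with TMM and 72.1% with library totals, which moved the median of all genes from 0.0037 to 0.043. Values near 0 changed sign. By genotype, H2-D1 was -0.00038 with lane as a covariate and -0.010 to 0.037 with 1 mouse left out, and Tapbp 0.036 with library totals, 0.00016 with quality weights, 0.00090 without lane 7 and -0.015 to 0.010 with 1 mouse left out. For control ASO against saline, H2-K1 was 0.0066 without lane 7, B2m -0.0035 with edgeR, -0.00019 with DESeq2, -0.016 with lane as a covariate and -0.018 to 0.041 with 1 mouse left out, and Psmb9 -0.010 to 0.11. The interaction of Tap2 was 0.021 with library totals, 0.055 without lane 7 and -0.065 to 0.041 with 1 mouse left out, and that of H2-T23 -0.12 to 0.0068. The cause was not tested. No paired analysis was possible because the replicate numbers follow sample order. With the letters of mouse names as a block (21 blocks, correlation 0.091) no call among the 10 genes changed, while the other heavy chains higher on Htt ASO went from 5 to 6 and the microglia markers lower by genotype from 7 to 9.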

Other observations

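Every gene has a highest and a lowest mouse, and how often other mice held these places was not counted. The Htt Q111/+ saline mouse replicate 3 lay outside the range of all other mice in 3 heavy chains, and outside that of its group also in H2-Q2 (0.404 CPM, the others 0.412 to 0.505). Its H2-T23 was at 11.4 CPM, below all other mice (12.7 to 23.4), its H2-Q1 at 10.6 CPM, below all other mice (18.1 to 32), and its H2-T24 at 5.38 CPM, above all other mice (1.37 to 3.99). Its H2-K1 (24.9 CPM), H2-D1 (36.7 CPM) and B2m (63.5 CPM) lay within the range of its group. Without this mouse the genotype difference of H2-T24 went from -0.18 (limma adjusted p = 0.23) to -0.27 (adjusted p = 0.0026), and that of H2-Q1 from -0.28 to -0.23 (adjusted p = 8.2e-06).

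Cd4, listed as a lymphocyte marker, was at 104 to 115 CPM as a group mean in Htt +/+ mice and at 73.8 to 77.5 in Htt Q111/+ mice, while Cd3d, Cd3e and Cd3g were at 4.00 counts or fewer in every mouse.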
